A study of Enchytraeus albidus with 42 samples.

Results

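The heat shock protein 90 family was represented by 2 of the 1035 transcripts measured in the soil worm Enchytraeus albidus. Heat shock protein 90 (EAC00488) and heat shock protein gp96 (EAC00097) were chosen by their names in the study's list of annotated transcripts. Both are in that list because they differed from a control in an unadjusted test on these same arrays, so the tests below are not independent of that choice. Adult worms were kept in soil for 2 days, and whole-body RNA was taken from 3 vessels of each of 14 groups and read on 42 arrays, 1 per vessel. The exposed groups received the insecticide dimethoate, the herbicide atrazine or the fungicide carbendazim at concentrations with a known effect on reproduction, from EC10 to EC90, where EC10 is the concentration with a 10% effect. Dimethoate was given at 0.1, 0.5, 2 and 25 mg per kg of soil and was set against a water control. Atrazine was given at 0.2, 0.5, 3 and 50 mg per kg and carbendazim at 0.05, 0.1, 0.5 and 3 mg per kg, and both were set against 1 shared solvent control spiked with acetone. The groups carry the labels dimethoate EC10, EC20, EC50 and EC90, and likewise for atrazine and carbendazim.

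Heat shock protein 90 is the cytosolic member of the family, an ATP-driven chaperone that holds client proteins such as kinases and steroid hormone receptors in an active state. Its gene is known in animals and yeast as a target of the heat shock factor, which responds to unfolded protein in the cytosol. The protein gp96, also called GRP94, is the family member of the endoplasmic reticulum, where in vertebrates it folds secreted and membrane proteins such as integrins. In vertebrates its gene is a target of the unfolded protein response of that compartment. These roles are background from other species and were not measured here.

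Each transcript was read by 1 probe printed as 14 or 15 spots per array, and a level below is the log2 of the mean spot signal after the arrays were shifted to a common median. A transcript counted as well above background on an array where more than 50% of its spots carried the scanner's mark for it. Levels of the 2 probes were not set against each other. A difference was called where limma's adjusted p over all 1035 transcripts was under 0.05. Between 74.7% and 94.5% of all transcripts were well above background per array. In 1 of 16 scans both arrays, dimethoate EC10 replicate 1 and dimethoate EC20 replicate 2, stood apart from their groups, with an SD from the group mean of 0.89 and 0.84 log2 over all transcripts, and the called results and the EC10 and EC20 changes that rest on them are given with and without them. In whole-body RNA fewer cells of a type and less RNA per cell cannot be told apart.

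The cytosolic transcript was well measured. Heat shock protein 90 was well above background on 39 of 42 arrays and in 590 of 630 spots, and no spot was saturated. Its unscaled signal ran from 3.96 to 83.6 with a median of 41.9, in a lower part of the range of the array, since 26.4% of all transcripts had a lower mean level. The spots of an array differed little, with a median SD of 0.13 log2, against a pooled SD of 0.46 log2 between the 3 arrays of a group. The spread was uneven, and group SDs ran from 0.06 log2 in dimethoate EC50 to 1.11 log2 in dimethoate EC20. The 3 exceptions to detection were the deviating scan's dimethoate EC10 array with 3 of 15 spots marked and its dimethoate EC20 array with 0 of 15, and solvent control replicate 2 with 3 of 15. These arrays needed upward shifts of 1.19, 1.29 and 0.89 log2 to reach the common median, and 78.7%, 77.9% and 81.6% of their transcripts were well above background. Replicate 2 of dimethoate EC10, shifted by 0.91 log2, had 15 of 15 spots marked. So did replicate 3 of atrazine EC50 and replicate 1 of carbendazim EC90, with only 74.7% and 76.1% of transcripts well above background. Those 2 arrays were brighter, with shifts of 0.51 and 0.08 log2. The part of array brightness in the low levels of the 3 exceptions was not tested.

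Under dimethoate heat shock protein 90 lay above the water control at EC50 and EC90 and, apart from the deviating scan, around it at EC10 and EC20. Levels were 5.16, 5.33 and 5.26 in the water control, 3.88, 5.06 and 5.19 in dimethoate EC10, and 4.90, 3.27 and 5.40 in EC20. They were 5.85, 5.75 and 5.86 in EC50, and 6.14, 5.90 and 6.07 in EC90. All 3 arrays of EC50 and all 3 of EC90 lay above all 3 control arrays, as did 15.6% and 14.1% of all transcripts at these concentrations. In EC10 and EC20 the lowest values were those of the deviating scan, and the other 4 arrays lay between 4.90 and 5.40, around the control. Against the water control the log2 changes were -0.54 in EC10, -0.73 in EC20, 0.57 in EC50 and 0.79 in EC90, each with an SE of 0.37. None of these passed the adjusted test (adjusted p between 0.394 and 0.901). With the deviating scan left out the changes were -0.13 log2 in EC10 (adjusted p = 0.992) and -0.10 log2 in EC20 (adjusted p = 0.996), with 2 arrays left in each. For EC90 the change corresponded to 1.73-fold, with a 95% interval of 0.04 to 1.54 log2 and an adjusted p of 0.470. The call depended on how the spread was estimated, since a fit of these 2 groups alone, whose SDs were 0.12 log2 in EC90 and 0.09 log2 in the control, gave an adjusted p of 0.0394. The share of all transcripts called in that fit is not given here, so the pass cannot be weighed against it.

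**Figure D1:**
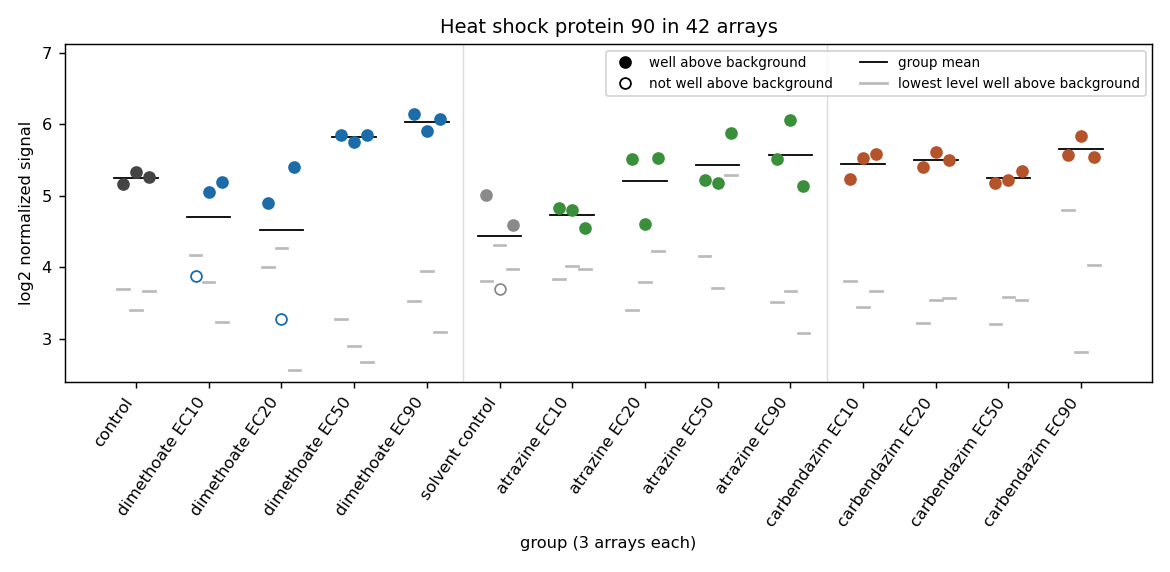
Level of heat shock protein 90 (log2 normalized signal) on each of 42 arrays in 14 groups, with black lines for group means, open points for arrays where it was not well above background, and grey marks for the lowest level well above background on each array. Dimethoate EC50 and EC90 lie between 5.75 and 6.14, above the control at 5.16 to 5.33, and the 3 open points are in dimethoate EC10, dimethoate EC20 and the solvent control.

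The clearest difference was between the higher and the lower dimethoate concentrations. The 6 arrays of EC50 and EC90 ran from 5.75 to 6.14, and the 6 arrays of EC10 and EC20 from 3.27 to 5.40, with no overlap, which 3.48% of all transcripts showed in this direction. The mean difference was 1.31 log2, with 2 of the 6 lower arrays not well above background, an SE of 0.26 and an adjusted p of 0.00115. This comparison called 9.76% of all transcripts as higher. Without the deviating scan the difference was 0.79 log2 (adjusted p = 0.0123), and 5.6% of transcripts were called as higher. The rise per step of concentration, from the control to EC90, was 0.27 log2 with an SE of 0.08, which did not pass (adjusted p = 0.0564). Without the deviating scan it was 0.23 log2 (adjusted p = 0.0121), and 7.25% of transcripts were called as rising. All EC50 and EC90 arrays lay on 1 slide, with 1 control array, and no EC10 or EC20 array lay there. With the slide as a block the difference was 1.48 log2 with an adjusted p of 0.440, and that fit called 0.0% of transcripts, so slide and concentration could hardly be separated.

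In the atrazine series heat shock protein 90 was set against a solvent control that was itself low and uneven. The solvent control levels were 5.01, 3.69 and 4.59, with the middle one not well above background. Levels were 4.83, 4.81 and 4.55 in atrazine EC10, 5.51, 4.60 and 5.52 in EC20, 5.23, 5.18 and 5.88 in EC50, and 5.52, 6.06 and 5.14 in EC90. The group means thus stood in the order of the concentrations, but the arrays of neighbouring concentrations overlapped. All arrays of EC50 and EC90 lay above all solvent control arrays, against 3.19% and 6.86% of all transcripts, whereas EC10 and EC20 overlapped with the control. The log2 changes against the solvent control were 0.30, 0.78, 1.00 and 1.14 from EC10 to EC90, each with an SE of 0.37. None passed the adjusted test, and EC90 had an adjusted p of 0.323, in a comparison that called 0.0% of transcripts. The solvent control was well above background on 2 of 3 arrays, and with its replicate 2 set at the lowest level well above background on that array the EC90 change was 0.93 log2. Without the deviating scan, which holds no atrazine or solvent array and enters only through the shared estimate of the spread, the EC90 change of 1.14 log2 had an adjusted p of 0.0240 and 1.26% of transcripts were called as higher. The slope was 0.30 log2 per step with an SE of 0.08 (adjusted p = 0.0627, and 0.00320 without the deviating scan, where 5.51% of transcripts were called as rising). The higher concentrations exceeded the lower ones by 0.53 log2, which did not pass (adjusted p = 0.325).

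Under carbendazim the levels were even and showed no order from EC10 to EC90. They were 5.24, 5.52 and 5.58 in carbendazim EC10, 5.40, 5.61 and 5.51 in EC20, 5.17, 5.22 and 5.35 in EC50, and 5.57, 5.84 and 5.54 in EC90. All 12 arrays lay above all 3 solvent control arrays. From the lowest to the highest concentration, 12.2%, 15.5%, 15.7% and 18.2% of all transcripts did so. The log2 changes were 1.01, 1.07, 0.81 and 1.22, each with an SE of 0.37, and none passed the adjusted test. EC90 came nearest, with an adjusted p of 0.0548, in a comparison that called 1.93% of transcripts as higher, and its change was 1.01 log2 with replicate 2 of the solvent control set as for atrazine. Without the deviating scan EC10 (adjusted p = 0.0283), EC20 (0.0217) and EC90 (0.00212) passed and EC50 did not (0.0501), where 1.93%, 2.71%, 7.44% and 3.57% of transcripts were called as higher. The higher concentrations differed from the lower ones by -0.03 log2 (95% interval -0.56 to 0.50), and the slope of 0.22 log2 per step did not pass (adjusted p = 0.162). The slope passed without the deviating scan (adjusted p = 0.0114), where 5.99% of transcripts were called as rising. It takes the low solvent control as its first step, so it does not show a rise among the exposed groups.

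The solvent control served 8 of the 12 comparisons with a control. Its heat shock protein 90 level differed from that of the water control by -0.82 log2 (SE 0.37, adjusted p = 0.382), and no solvent array reached the lowest water control array. In that comparison 13.1% of all transcripts lay below the water control without overlap. Without replicate 2 of the solvent control this difference was -0.45 log2. The changes from EC10 to EC90 were then -0.07, 0.41, 0.63 and 0.77 log2 for atrazine and 0.64, 0.70, 0.44 and 0.85 log2 for carbendazim. None passed, as none did with all arrays kept, and no fit left out both this replicate and the deviating scan. That replicate also held the outlier spot with the largest effect on this transcript. Its 13 kept spots had signals between 3.13 and 9.37, and 1 of the 2 spots set aside as outliers had a signal of 942. With outlier spots kept, the level of that array was 7.04 in place of 3.69, and the median of its spots gave 3.68. Against the water control, the reference that atrazine and carbendazim were not paired with, the changes were 0.32 log2 in atrazine EC90 and 0.40 log2 in carbendazim EC90, and neither passed.

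**Figure D2:**
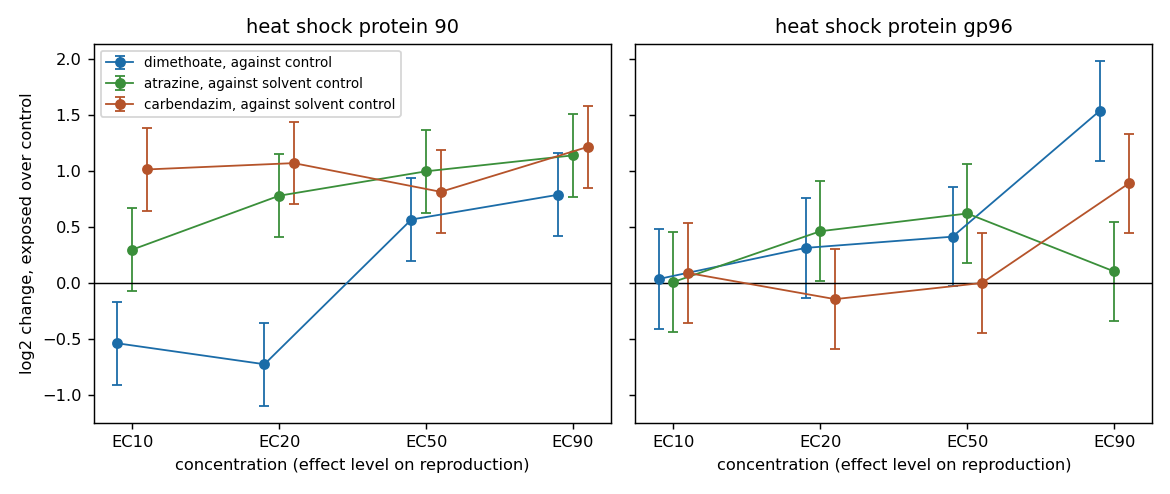
Log2 change of heat shock protein 90 (left) and gp96 (right) at each concentration over the control of the series, with bars for the SE of limma's fit. Heat shock protein 90 under dimethoate lies below 0 at EC10 and EC20 and above 0 at EC50 and EC90, whereas all atrazine and carbendazim changes lie above 0; gp96 values rest on signals below background on nearly all arrays.

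The 3 pesticides were compared at the same effect level by the difference of their changes. None of the 12 differences in heat shock protein 90 passed the adjusted test, and 3 had an unadjusted p under 0.05. Over all transcripts 0.66% of these differences passed and 10.9% had an unadjusted p under 0.05. The difference nearest to the threshold was at EC20, where the dimethoate change was 1.80 log2 units below the carbendazim change (difference -1.80, SE 0.52, adjusted p = 0.130). It was -1.17 log2 without the deviating scan (adjusted p = 0.241). At EC90 the dimethoate change differed from the atrazine change by -0.35 log2 (95% interval -1.42 to 0.71) and from the carbendazim change by -0.43 log2 (95% interval -1.49 to 0.64). Carbendazim and atrazine differed at EC90 by 0.08 log2 (95% interval -0.68 to 0.83). The intervals include differences in both directions, so a like response was not shown. Over all 14 groups the transcript differed (F = 3.50, adjusted p = 0.0249), as did 10.6% of all transcripts, and without the deviating scan F was 5.15 (adjusted p = 0.00202), where 21.0% were called. The F did not pass with the slide as a block (1.61, adjusted p = 0.828) or as a random block (3.05, adjusted p = 0.0590). By group mean the order ran from dimethoate EC90 at 6.04 and dimethoate EC50 at 5.82 down to dimethoate EC20 at 4.52 and the solvent control at 4.43. Dimethoate EC10 and EC20 averaged 5.12 and 5.15 without the deviating scan. Of the 13 pairs of neighbours in this order, the arrays of 12 overlapped. Dimethoate EC90 and EC50 were apart only narrowly, with a lowest level of 5.90 in EC90 and a highest of 5.86 in EC50. The pooled SD between arrays of a group was 0.46 log2. The order was made from these same means, and EC90 was not tested against EC50.

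Slides held several groups, so heat shock protein 90 was also compared within them. A control of the same series lay on the same slide for 24 exposed arrays, and the exposed level was the higher one in 21 of them. These were 7 of 10 dimethoate arrays, 9 of 9 atrazine arrays and 5 of 5 carbendazim arrays. For dimethoate the within-slide difference was 0.49 to 0.60 log2 in EC50 and 0.65 to 0.88 log2 in EC90. In EC10 it was -1.36 and -0.06 log2, and in EC20 -1.97 and 0.15 log2, with the first value of each from the deviating scan. For atrazine the difference was 1.11 and 1.14 log2 in EC10, 0.91 and 1.82 log2 in EC20, 0.64 and 1.29 log2 in EC50, and 0.55 to 1.47 log2 in EC90. The atrazine EC10 and EC20 values were all taken against the solvent array that was not well above background. For carbendazim it was 0.16 to 0.34 log2 in EC50 and 0.52 and 0.56 log2 in EC90, which is less than the pooled changes of 0.81 and 1.22 log2. No solvent array shared a slide with carbendazim EC10 or EC20. Each of these slides held 1 or 2 controls of the series, so these are values with no test. The exposed arrays of a slide share its controls, so the 24 differences are not independent of each other.

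**Figure D3:**
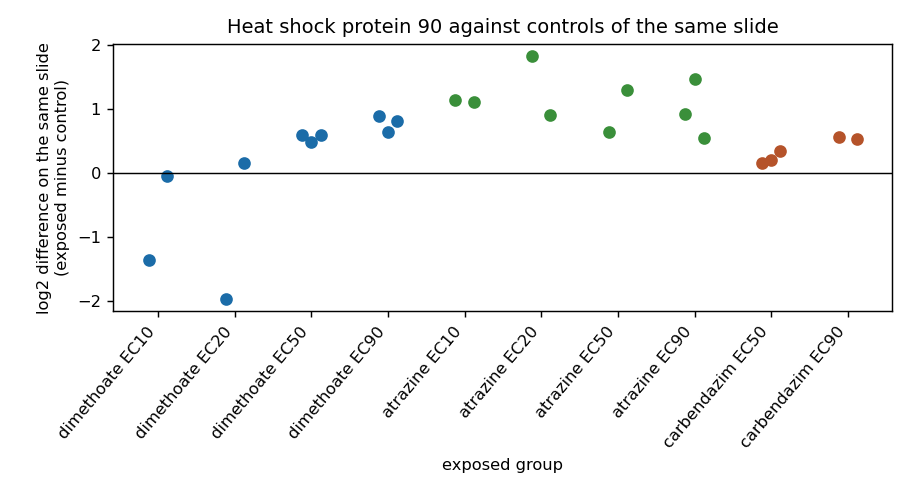
Difference in heat shock protein 90 level (log2, exposed minus control) between each of 24 exposed arrays and the control of its series on the same slide, by exposed group. The dimethoate EC50 and EC90 points lie at 0.49 to 0.88, and the 2 lowest points, at -1.36 and -1.97, are the arrays of the deviating scan.

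The family member of the endoplasmic reticulum was hardly detected. The gp96 transcript was well above background on 1 of 42 arrays, replicate 3 of dimethoate EC90, where all 14 spots were marked and the level was 4.12. On 24 arrays no spot was marked, on 15 arrays 1 or 2 were, and the next highest count was 4 of 14 spots, in replicate 1 of dimethoate EC90 and replicate 2 of carbendazim EC90. Only 60 of 1035 transcripts were above background on as few or fewer arrays. The median unscaled signal was 3.73, and the spots of an array scattered with a median SD of 0.43 log2.

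Levels of gp96 were 3.24, 2.67 and 4.12 in dimethoate EC90, against 1.93, 1.54 and 1.95 in the water control. The groups did not overlap, as in 14.1% of all transcripts, and the array that was above background was also the highest of all 42. In the fit across all transcripts this was the single comparison with a control, of 12, in which gp96 passed (adjusted p = 0.0496), and 2.9% of transcripts were called there as higher. The lowest level well above background on the control arrays averaged 3.60, which was higher than the dimethoate EC90 mean of 3.34, so no fold is given. The call was lost in 12 of 16 alternatives other than leaving out a replicate, and in 5 of the 6 fits that left out a replicate. The alternatives that kept it include the t-test of the methods without adjustment. The study chose its list by that test on these arrays, so that pass is not independent of the choice. Without replicate 3 of EC90, the array above background, the adjusted p was 0.452. In the fit without the deviating scan, which holds no EC90 or control array, it was 0.0328. The slope over dimethoate concentrations passed as well (adjusted p = 0.0365), where 4.15% of transcripts were called as rising. Without replicate 3 of EC90 its adjusted p was 0.223. Without the deviating scan it was 0.0129, where 7.25% of transcripts were called as rising.

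No other exposed group had an array with gp96 well above background. Levels in dimethoate EC10, EC20 and EC50 ran from 1.27 to 2.55, and only EC50, at 2.43, 2.19 and 2.04, lay above all control arrays, as 15.6% of transcripts did. In the solvent control they were 1.51, 2.06 and 1.89. Single high values occurred in atrazine EC20 replicate 3 (3.57), atrazine EC50 replicate 3 (3.29) and carbendazim EC90 replicate 2 (3.55). The first 2 lay below the lowest level well above background on their own arrays. In the last, kept spots ran from 1.80 to 43.6 in signal, and the median of the spots gave 2.18 in place of 3.55. None of these groups passed against the solvent control, and the smallest adjusted p was 0.293, in carbendazim EC90. None of the 12 differences between pesticides passed for gp96 (smallest adjusted p 0.496).

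**Figure D4:**
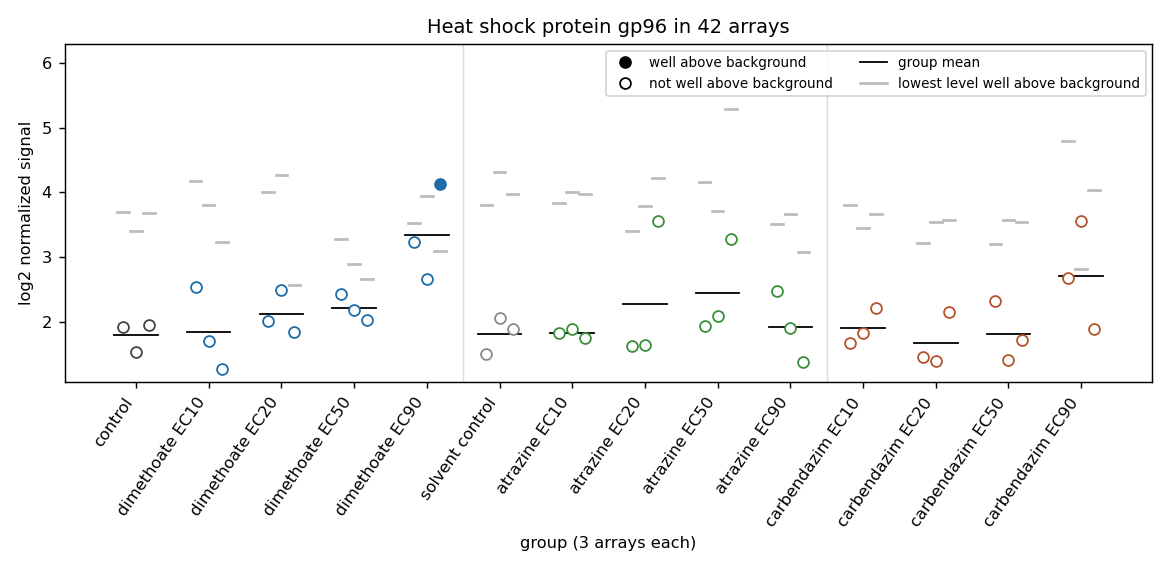
Level of gp96 (log2 normalized signal) on each of 42 arrays in 14 groups, drawn as for heat shock protein 90, with black lines for group means and grey marks for the lowest level well above background on each array. The single filled point, at 4.12, is replicate 3 of dimethoate EC90, and all other points are open.

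The change of gp96 was set against that of heat shock protein 90 within the same arrays. In none of the 12 comparisons with a control did the 2 changes differ past the adjusted test (adjusted p between 0.0819 and 0.927), and 1 had an unadjusted p under 0.05. Of the 12 differences between pesticides 1 passed, dimethoate EC20 minus carbendazim EC20 (2.26 log2, adjusted p = 0.0228). There 66.4% of all transcripts were called as higher relative to heat shock protein 90. That difference, in a fit without the deviating scan chosen after seeing the data, was 1.44 log2 (adjusted p = 0.0757). In that fit 2 comparisons with a control passed, atrazine EC90 (-1.04 log2, adjusted p = 0.0338) and carbendazim EC20 (-1.22 log2, adjusted p = 0.0168), where 74.2% and 69.3% of all transcripts were called as lower relative to heat shock protein 90. Since gp96 was near background, these differences are bounded on its side by the floor of the arrays.

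A further 10 transcripts of protein folding and turnover were described beside the family. They come from the same list of the study, so their tests are not independent of how that list was chosen either. Of these, 8 were well above background on 37 to 42 arrays. Heat shock protein 60, the mitochondrial chaperonin, was not on any array, and 26S protease regulatory subunit 8, an ATPase of the proteasome, was on 2. In the 12 comparisons with a control, 0 of 120 tests of these transcripts passed in limma, 11 had an unadjusted p under 0.05, and without the deviating scan 2 passed. Over all transcripts the shares were 0.765%, 9.44% and 3.5%. Those 2 were Sec61 subunit beta, a part of the channel into the endoplasmic reticulum, in atrazine EC90 (0.65 log2, adjusted p = 0.0329) and proteasome isoform a, a subunit of the protease that degrades ubiquitin-tagged protein, in carbendazim EC90 (0.80 log2, adjusted p = 0.0258). In the same fit Sec61 subunit beta was called as lower in the solvent control than in the water control (-0.60 log2, adjusted p = 0.0192), as were 2.03% of transcripts. Its mean level was 6.06 in atrazine EC90, against 5.41 in the solvent control, and 6.00 in the water control.

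Between the higher and the lower dimethoate concentrations 3 of the 10 rose and 0 fell past the adjusted test, beside the 9.76% of all transcripts that were called as higher. Their median difference was 0.38 log2, against 0.05 log2 over all transcripts. Proteasome isoform a differed most, by 1.00 log2 (SE 0.22, adjusted p = 0.00248), with levels of 8.50 to 9.26 in EC50 and 9.10 to 9.69 in EC90, against 7.58 to 8.63 in EC10 and 7.16 to 8.39 in EC20. Heat shock cognate 71 kDa, a constitutive HSP70 that hands clients on to HSP90, differed by 0.59 log2 (SE 0.19, adjusted p = 0.0329). Its 2 lowest levels, 5.90 and 5.78, were those of the deviating scan, and without that scan it no longer passed. Sec61 subunit beta differed by 0.36 log2 (SE 0.12, adjusted p = 0.0431), and without the deviating scan it did not pass either. Without that scan proteasome isoform a differed by 0.62 log2 (adjusted p = 0.0443), where 5.6% of transcripts were called as higher. Chaperonin subunit 8, part of the cytosolic ring that folds actin and tubulin, then fell by 1.05 log2 (adjusted p = 0.0415). Its level of 3.33 in replicate 1 of EC90 was not well above background. The share of all transcripts called as lower in that fit is not given here, so this call cannot be weighed against it.

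Against the controls the median changes of the list were small. In dimethoate EC90 the list had a median change of 0.26 log2, against -0.02 log2 over all transcripts. There 9 of 10 were above 0, beside 48.2% of all transcripts. The 9 include heat shock protein 60 and 26S protease regulatory subunit 8, which were well above background on 0 and 2 arrays. All medians and counts of the list include these transcripts. In atrazine EC90 the median was -0.02 log2 against 0.04 log2, and in carbendazim EC90 it was 0.09 log2 against 0.03 log2. In these 5 of 10 and 6 of 10 were above 0, beside 52.9% of all transcripts in each. The 10 kDa mitochondrial heat shock protein, the partner of heat shock protein 60, and chaperonin subunit 7 had log2 differences of -0.33 and -0.40 between the higher and the lower dimethoate concentrations, and neither passed. T-complex protein 1 subunit beta, of the same ring as the chaperonin subunits, had changes of 0.68 log2 in dimethoate EC50 and -0.79 log2 in carbendazim EC20, and neither passed. Over all 14 groups Sec61 subunit beta (F = 3.51, adjusted p = 0.0247) and proteasome isoform a (F = 3.03, adjusted p = 0.0495) differed, and the other 8 did not pass, beside the 10.6% of all transcripts called. With that scan left out Sec61 subunit beta passed (F = 4.45, adjusted p = 0.00488) and proteasome isoform a did not (F = 2.68, adjusted p = 0.0579).

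**Figure D5:**
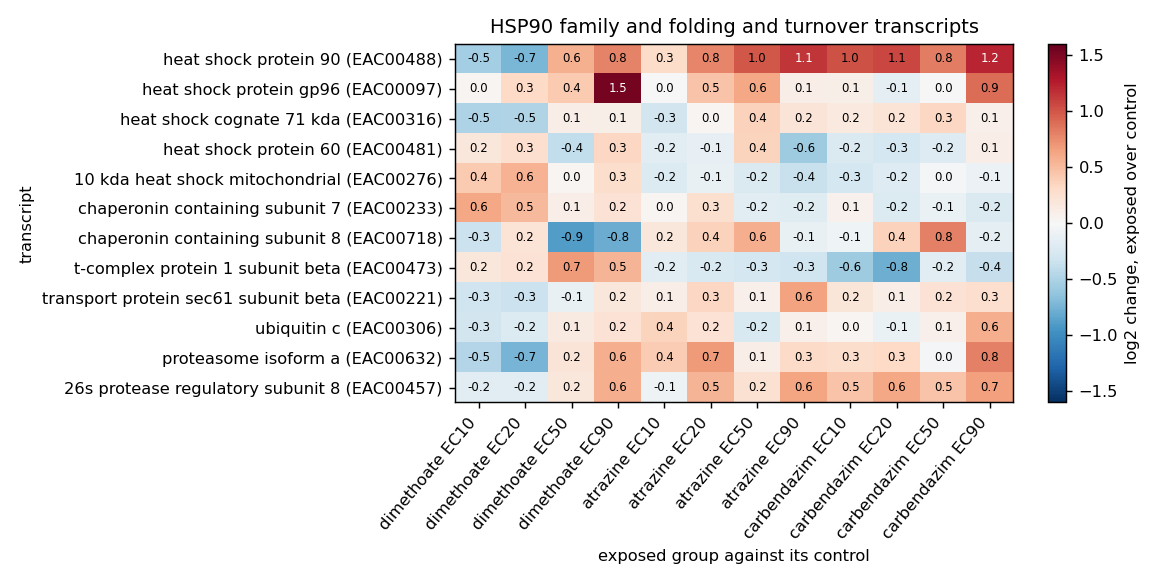
Log2 change, exposed over control, of the 2 family members and 10 folding and turnover transcripts (rows) in 12 exposed groups (columns), with red for higher and blue for lower. The first row, heat shock protein 90, is red from dimethoate EC50 onward, and the values of gp96, heat shock protein 60 and 26S protease regulatory subunit 8 come from signals that were mostly not above background.

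Transcripts with the most similar pattern were found by Pearson's correlation over the 14 group means. For heat shock protein 90 the leading one had no name in the study's list (sequence Ealb_Pest_P9_A6_SP6_2091027, r = 0.91 over group means and 0.91 over 42 arrays), and the next was also unnamed (Ealb_Met_P3_C1_SP6_2090329, r = 0.90 and 0.85). The third was 26S protease regulatory subunit 8 (r = 0.86 and 0.51), which was above background on only 2 arrays. Contig98 and Ealb_Met_P6_F11_SP6_2090590, with no name, followed at r = 0.86 and 0.85 (0.52 over the 42 arrays for both). Altogether 18 of 1034 transcripts had an r over 0.8 with heat shock protein 90. Heat shock cognate 71 kDa had an r of 0.77 over group means and 0.75 over arrays. Its r without the deviating scan, a setting chosen after seeing the data, was 0.66 and 0.58, and the 5 leading transcripts had an r of 0.83 to 0.91 over group means. For gp96 the leading transcript was chymotrypsinogen B1, a digestive protease (r = 0.95 over group means and 0.86 over arrays), which was itself above background on 2 arrays. It was followed by 4 unnamed sequences, P5_E2_T7_1329803, Contig92, P1_C11_SP6_1371392 and P3_D4_SP6_1371437, with r between 0.78 and 0.92 over group means. Over the 42 arrays their r was 0.54, 0.76, 0.31 and 0.53, and Contig92 was above background on only 6 arrays. The 2 family members had an r of 0.57 over group means and 0.29 over arrays. These correlations share the arrays, the slides and the scaling, and are given as descriptions.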

How the data were processed

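The deposited scanner files of 42 one-colour Agilent arrays were used. Per the file headers, the intensity of each spot had been background-subtracted and detrended by the authors' scanner software (Feature Extraction 10.5.1.1, per the labels), and was not normalized between arrays. The deposited spot flags served as scores for background, saturation and outliers. Outlier spots were removed, the remaining spots of each transcript were averaged, and the log2 averages of an array were brought to the level of the median array by 1 added constant (-0.50 to 1.29 log2). Limma 3.58.1 in R 4.3.3 fitted 14 group means, with 28 residual and 3.94 prior degrees of freedom, and adjusted p by Benjamini-Hochberg over 1035 transcripts per contrast. All adjusted p values come from it, and it was tested on simulated data. Trends used scores from 0 for the control to 4 for EC90. All 225 names of the study's annotated list were linked to sequences by their log2 ratios (largest difference 0.00131, next sequence at least 0.0371). The named transcripts were the members, a list of 10 folding and turnover transcripts and the 5 most correlated with each member. Members and lists were chosen with earlier results of these data known. No pair of arrays was identical (861 pairs, highest r 0.9946), and 3 vessels per group limit the precision. Alternatives covered scaling, background, spot averaging, a filter on dim transcripts, blocks, the t-test of the methods, other controls and left-out arrays. Python 3.11.15, numpy 2.4.6, pandas 2.3.3, scipy 1.17.1, matplotlib 3.10.9 and data.table (version 1.17.8) were used. No sequences were used here.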

Additional observations from a re-analysis of the deposited data

How the results depend on the processing

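For heat shock protein 90 the called difference between the higher and the lower dimethoate concentrations kept its direction in all alternatives (0.33 to 1.87 log2) and its call in all but the slide as a block (1.48 log2, adjusted p = 0.440), and it ran from 1.00 to 1.53 log2 when single replicates were left out. The F over the 14 groups lost its call without scaling (2.85), with normexp background (2.82), with outlier spots kept (1.79), and with the slide as a block (1.61) or a random block (3.05), and ran from 3.10 to 4.62 over left-out replicates, where only leaving out replicate 1 of dimethoate EC90 ended it. The cause was not tested.

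Other results of heat shock protein 90 gained a call. Dimethoate EC90 (0.79 log2) passed in the fit of 2 groups and against the solvent control (1.61 log2). The shares of all transcripts called there are not given. The t-test of the methods gave 0 calls in the 12 comparisons with a control after adjustment. Without adjustment dimethoate EC50 (0.57 log2), dimethoate EC90 (0.79) and carbendazim EC90 (1.22) had a p under 0.05 in it. The study chose its list by that test on these arrays, so these passes are not independent of the choice. In limma 8 of the 12 comparisons had an unadjusted p under 0.05, with the EC90 changes of dimethoate and carbendazim among them. Over all transcripts 9.44% of the comparisons with a control did so. Of the 8, all but dimethoate EC90 used the shared solvent control, so they are not independent of each other. Without the deviating scan atrazine EC90 (1.14 log2), carbendazim EC90 (1.22 log2) and the slopes of dimethoate (0.23), atrazine (0.30) and carbendazim (0.22) passed, with unchanged values for atrazine and carbendazim since that scan holds none of their arrays. The dimethoate slope also passed with normexp background (0.088), spots averaged as log2 values (0.27), the scan day as a block (0.29) and the solvent control (0.43), and the atrazine slope with scaling to the 75th percentile (0.36). Over left-out replicates carbendazim EC90 ran from 0.85 to 1.51 log2, the dimethoate slope from 0.23 to 0.29 and the atrazine slope from 0.22 to 0.36, with calls in some of these fits.

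With outlier spots kept, the changes turned to -0.68 in atrazine EC10, -0.32 in EC20 and -0.11 in EC50, to -0.10 in carbendazim EC10, -0.0071 in EC20 and -0.24 in EC50, and to 0.23 for the solvent control over the water control, with the solvent array whose level moved by 3.35 log2 in all 7. Against the other control the sign turned in dimethoate EC10 (0.28) and EC20 (0.090), atrazine EC10 (-0.52) and EC20 (-0.037) and carbendazim EC50 (-0.0023), and with normexp background in atrazine EC10 (-0.14). That change was -0.073 to 0.59 over left-out replicates. Differences between higher and lower concentrations near 0 turned for atrazine with the slide as a block (-0.022) and for carbendazim with quantile normalization (0.048), normexp (0.0065), outlier spots kept (0.13) and log2 averages (0.033), and ran from -0.080 to 0.0062 for carbendazim over left-out replicates.

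The fitted log2 differences of gp96 are differences of signals mostly below background. Dimethoate EC90 (1.54) lost its call with scaling to the 75th percentile (1.46), quantile normalization (0.78), no scaling (1.70), normexp (0.11), outlier spots kept (1.32), log2 averages (1.41), the slide as a block (1.39) or random block (1.53), 2 groups only, the adjusted t-test (both 1.54) and the solvent control (1.52), and ran from 1.15 to 1.87 over left-out replicates. Its slope lost the call with the 75th percentile (0.31), quantile normalization (0.19), normexp (0.00060), outlier spots kept (0.28), log2 averages (0.30) and the slide as a block (0.29) or random block (0.34), and ran from 0.27 to 0.41. The higher against lower concentrations gained a call with quantile normalization (0.60), no scaling (1.36) and, chosen after seeing the data, the median of spots (1.03), turned with normexp (-0.089), and ran from 0.61 to 0.98. Without a call, signs turned with normexp in atrazine EC90 (-0.22), the atrazine slope (-0.028), carbendazim EC90 (-0.25) and the carbendazim slope (-0.045), with the slide as a block in atrazine EC90 (-0.34), slope (-0.046) and higher against lower (-0.26), with the median of spots in atrazine EC90 (-0.056), and in atrazine higher against lower without scaling (-0.016), with outlier spots kept (-0.13) and with log2 averages (-0.012). Over left-out replicates atrazine EC90 ran from -0.17 to 0.37 and higher against lower from -0.085 to 0.45.

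With the replicate block the gp96 value in dimethoate EC90 was 1.54 log2 and lost its call (adjusted p = 0.0603), and the replicate block ended or added no other call of the members. The replicate numbers only number the vessels: same-numbered arrays deviated together with r from -0.28 to 0.29, over 0.1 in 13 of 39 pairs and in every pair in 0 of 13 comparisons. Of the folding and turnover list 0 of 120 tests passed, 11 without adjustment, 19 in the unadjusted t-test and 2 without the deviating scan. The study chose its list by that t-test on these arrays, so the count of 19 is not independent of the choice.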
